A study of Mus musculus with 4 samples.

Results

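The EGF receptor system was examined in intestinal crypt RNA as 10 genes chosen by name: the receptor genes Egfr, Erbb2 and Erbb3, the receptor inhibitor Lrig1, and the ligand genes Areg, Ereg, Btc, Egf, Tgfa and Hbegf. All 10 were found among the 53845 rows of the count table and all 10 were among the 17504 genes with enough counts to be tested. Crypts from C57BL/6 mice were released with EDTA, and RNA from 2 wild-type (WT) and 2 Vil-CREPTKO libraries was sequenced. Vil-CREPTKO mice carry a floxed gene for CREPT (Rprd1b) and a Cre recombinase under the villin promoter. The Cre acts in the epithelium, so other cells of the gut wall keep the gene. In the cross that the paper tabulates, both parents were floxed, so WT offspring there were floxed mice without Cre. Whether the sequenced WT mice came from that cross is not stated. No treatment or injury was applied to either group. The methods describe crypt isolation from the small intestine and an age of 6 to 8 weeks for the mice of the study as a whole, and the legends for the RNA-seq data count 2 mice per genotype, which with 2 libraries each is 1 mouse a library.

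ERBB receptors are receptor tyrosine kinases that work as pairs. EGFR binds EGF, TGFα, amphiregulin (Areg), epiregulin (Ereg), betacellulin (Btc) and HB-EGF (Hbegf). ERBB2 has no known ligand and serves as the preferred partner of the others. ERBB3 binds some, not all, of the neuregulins and has little kinase activity of its own. In the crypt, EGF signals drive division of the stem and progenitor cells, and LRIG1, a transmembrane protein that promotes loss of ERBB receptors from the cell, restrains them. EGF is also a standard component of intestinal organoid medium.

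Before the members were read, the deleted gene and the makeup of the libraries were checked. Rprd1b was at 60.5 and 61.6 CPM (counts scaled to the library total and by TMM) in WT and at 26.3 and 29.0 CPM in the Vil-CREPTKO libraries, so the groups parted as labelled (log2 fold change -1.14, standard error 0.12, adjusted p 0.0041 from edgeR). Counts cover the whole gene, so the deleted part could not be read alone. Total counts ranged from 47241049 to 49369315. The epithelial genes Epcam, Cdh1, Vil1, Krt8, Krt18, Krt19 and Krt20 summed to 8655 to 10240 CPM, with the groups overlapping, while 5 smooth muscle genes summed to at most 0.752 CPM and 9 stromal genes to at most 30.0 CPM. WT replicate 2 expressed Xist and no Y-linked gene, and the other 3 libraries the reverse, so WT held a library of each sex. Vil-CREPTKO replicate 1 stood apart in several measures: mitochondrial genes took 10.2% of its counts against 6.75% to 7.62% elsewhere, 5 crypt base stem cell genes summed to 1273 CPM against 1536 to 1931, 7 enterocyte genes to 21880 CPM against 11780 to 15310, and the stromal genes to their highest value. Of the marker lists with more than trace levels, the tuft cell list (196 and 233 CPM in WT, 118 and 110.3 in Vil-CREPTKO) and the goblet cell list (7036 and 7559 against 5715 and 5986) were lower in both Vil-CREPTKO libraries. All 5 tuft cell genes were lower there without overlap, beside 24.2% of all genes tested. Among goblet cell genes, 3 of the 5 (Muc2, Tff3 and Agr2) overlapped between the groups and 0 of the 5 passed the test. The lower goblet sum thus came mainly from Clca1 and Fcgbp.

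The first question was how much RNA of each member the crypts held. To compare genes, counts were divided by merged exon length to give RPKM, a level per length. Erbb3 was the most abundant member in all 4 libraries, at 59.9 ± 0.562 RPKM (SD, n = 2) in WT, a level at or above that of 94.8% of the genes tested. Erbb2 followed at 28.2 ± 1.86 RPKM (SD, n = 2) and Lrig1 at 15.5 ± 0.959 RPKM (SD, n = 2) in WT. Egfr itself was far less abundant, at 2.85 ± 0.0487 RPKM (SD, n = 2), near the middle of all genes tested (percentile 47.2). Egfr thus made up 3.11% to 3.15% of the summed RPKM of the 3 receptor genes in WT and 2.56% to 3.48% in Vil-CREPTKO, and Erbb3 65.1% to 66.7% and 72.1% to 75.5%.

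Of the ligands, Areg (4.31 ± 1.02 RPKM in WT, SD, n = 2) and Tgfa (3.53 ± 0.513 RPKM) were the most abundant, and their WT libraries overlapped in level. Hbegf followed at 2.13 ± 0.478 RPKM and Btc at 0.881 ± 0.0134 RPKM in WT. Ereg (0.160 ± 0.00412 RPKM) and Egf (0.114 ± 0.00831 RPKM) were close to the bottom of the genes tested, at percentiles 9.37 and 6.71. Apart from Areg and Tgfa in WT, neighbours in this order did not overlap within either group, and the order was the same in Vil-CREPTKO. The order rests on the merged exon lengths, which pool the exons of every annotated transcript of a gene. Before division by length it differed. In mean WT CPM, Tgfa (22.9) and Hbegf (10.3) stood above Areg (5.24), and Egf (1.285) above Ereg (0.658). The 6 ligands together summed to 9.70 and 12.6 RPKM in WT, against 11.1 and 12.1 RPKM.

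**Figure D1:**
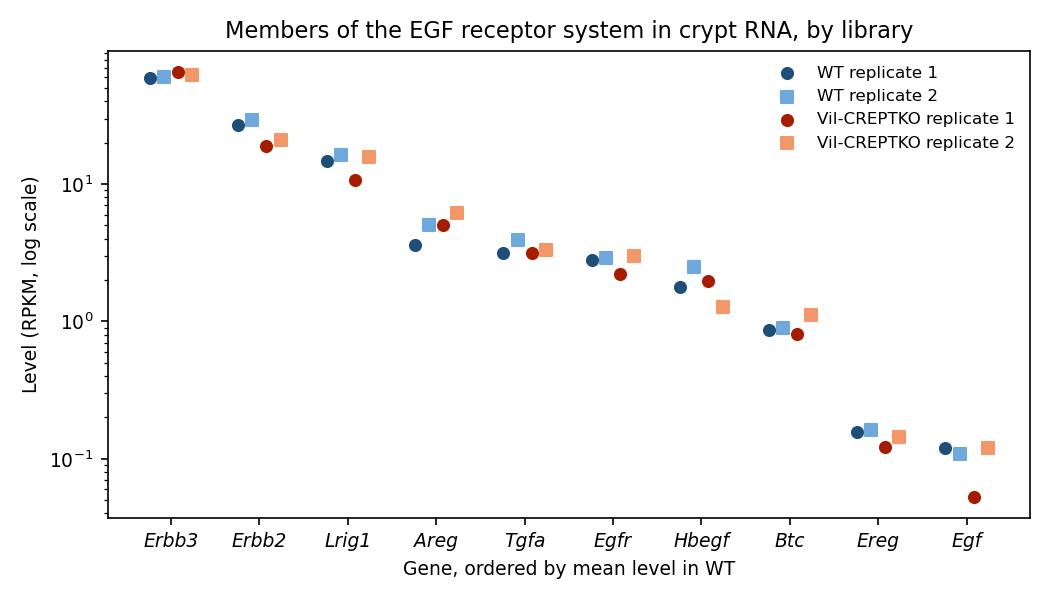
Level of each member in each library, in RPKM on a log scale, with genes ordered by their mean in WT; each point is 1 library and no error bar is drawn. Erbb3 leads at 59.6 to 65.4 RPKM and Egf is last at 0.0531 to 0.120 RPKM, and in Erbb2 both Vil-CREPTKO points lie under both WT points.

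WT and Vil-CREPTKO crypts were then compared to ask whether loss of CREPT changes the EGF receptor system without injury. With the quasi-likelihood test of edgeR, 0 of the 10 members rose and 0 fell at an adjusted p under 0.05, whereas 2.29% of all genes tested fell and 0.423% rose. At an unadjusted p under 0.05 there was 1 member, Erbb2, beside 14.3% of all genes. DESeq2 gave 0 members at an adjusted p under 0.05. The log2 fold changes of 7 members were negative and of 3 positive, with a median of -0.18 beside -0.006 over all genes tested, of which 50.9% were negative. Groups did not overlap in CPM in 3 members: Erbb2 and Ereg were lower, as were 24.2% of all genes, and Erbb3 was higher, as were 21% of all genes. With 2 libraries a group these counts are few, and the intervals below say how large a change could have gone unseen.

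Erbb2 (ENSMUSG00000062312, chromosome 11, 98412470 to 98437716, plus strand, GRCm38), the partner receptor, showed the clearest difference. It was at 140.0 and 153.6 CPM in the WT libraries and at 98.9 and 109.8 CPM in the Vil-CREPTKO libraries. Both Vil-CREPTKO libraries lay under both WT libraries, and the gap between the groups exceeded the spread within either. The mean in Vil-CREPTKO was 71.1% of WT (log2 fold change -0.49, SE 0.13, 95% interval -0.79 to -0.19), with an unadjusted p of 0.00481 and an adjusted p of 0.103 by edgeR. The adjusted p was under 0.05 with scaling by library totals (0.0496) and without the filter on low counts (0.0378), and 0.314 after a correction for GC content and length, which reduced the log2 fold change to -0.33; over all 13 alternatives it ran from 0.0378 to 0.395, with a negative fold change in each. Among the 3 male libraries, that is without WT replicate 2, the log2 fold change was -0.42 (adjusted p 0.395 from edgeR). All 5 tuft cell genes were lower in the same libraries without overlap, beside 24.2% of all genes tested. Of these, 3 passed the test, beside 2.29% of all genes that fell. The goblet cell sum was also lower in both Vil-CREPTKO libraries. The part of tuft or goblet cells in the Erbb2 difference was not tested. In RNA from whole crypts, fewer cells of a type and less RNA per cell cannot be told apart.

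Erbb3 (ENSMUSG00000018166, chromosome 10, 128567523 to 128589652, minus strand), the neuregulin receptor, differed little between the groups. It was at 358 and 363 CPM in the WT libraries and at 394 and 374 CPM in the Vil-CREPTKO libraries. The Vil-CREPTKO libraries were the higher, yet the difference was small (log2 fold change 0.089, 95% interval -0.26 to 0.44, standard error 0.15, adjusted p 0.861 from edgeR), and with scaling by library totals it was -0.005.

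Egfr (ENSMUSG00000020122, chromosome 11, 16752203 to 16918158, plus strand), the receptor of all 6 ligands, was at 31.9 and 32.7 CPM in the WT libraries. In Vil-CREPTKO it was at 25.1 CPM in replicate 1 and 33.9 CPM in replicate 2, so that the groups overlapped and the highest library was a Vil-CREPTKO one. The log2 fold change was -0.13 (95% interval -0.50 to 0.24, standard error 0.16, adjusted p 0.796 from edgeR) and turned to 0.070 without Vil-CREPTKO replicate 1.

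Lrig1 (ENSMUSG00000030029, chromosome 6, 94604529 to 94700158, minus strand), the inhibitor and a marker of crypt stem cells, followed the pattern of Egfr. It was at 82.8 and 90.4 CPM in the WT libraries, while Vil-CREPTKO replicate 1 was at 60.2 CPM and replicate 2 at 88.2 CPM. One Vil-CREPTKO library was thus low and the other within the WT range. The log2 fold change was -0.22 (95% interval -0.62 to 0.18, standard error 0.18, adjusted p 0.644 from edgeR). It was 0.023 without Vil-CREPTKO replicate 1 and -0.52 without replicate 2 (adjusted p 0.0721 from edgeR), and the adjusted p over all 13 alternatives ran from 0.0721 to 0.978. The low library is the one with the fewest crypt base stem cell transcripts and the most mitochondrial counts, and the part of these in the Lrig1 level was not tested. Exons of Lrig1 share 144 bases with Slc25a26 on the other strand, 2.58% of its exon length.

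**Figure D2:**
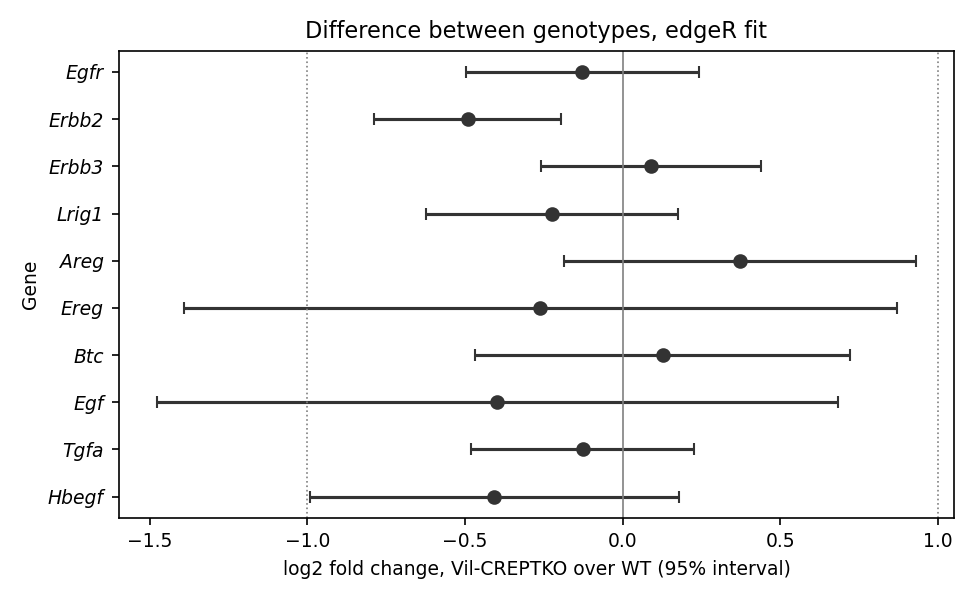
Log2 fold change of each member, Vil-CREPTKO over WT, from the edgeR fit; points are estimates and bars are 95% intervals, and dotted lines mark a 2-fold difference either way. Of the 10 intervals, 9 include 0 (Erbb2 does not), and 8 lie within the dotted lines, those of Ereg and Egf reaching beyond.

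Since a fold change depends on how libraries are scaled, 5 ratios between members within a library were also formed, chosen after the values were seen. Per exon length, the ratio of Erbb2 to Erbb3 was 0.451 and 0.489 in the WT libraries against 0.290 and 0.339 in the Vil-CREPTKO ones. Erbb2 therefore took a smaller place beside Erbb3 in both Vil-CREPTKO libraries, whatever the scaling. As Erbb2 was lower and Erbb3 higher in CPM in both, this ratio had to part the groups and is no further support. The ratio of Lrig1 to Erbb3 was 0.249 and 0.268 against 0.165 and 0.254, and that of Egfr to Erbb3 was 0.0473 and 0.0478 against 0.0338 and 0.0482. In the first of these, Vil-CREPTKO replicate 2 lay within the WT range, and in the second it lay just above it. Among ligands, the ratio of Areg to Tgfa was 1.14 and 1.30 against 1.60 and 1.85, while that of Hbegf to Tgfa overlapped between groups (0.568 and 0.636 against 0.625 and 0.380). By a two-sided exact permutation test the smallest p that 2 libraries against 2 allow is 0.333, so no ratio could pass a threshold of 0.05. The p was 0.333 for Erbb2 to Erbb3 and for Areg to Tgfa (0.832 adjusted over the 5 ratios) and larger for the others.

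**Figure D3:**
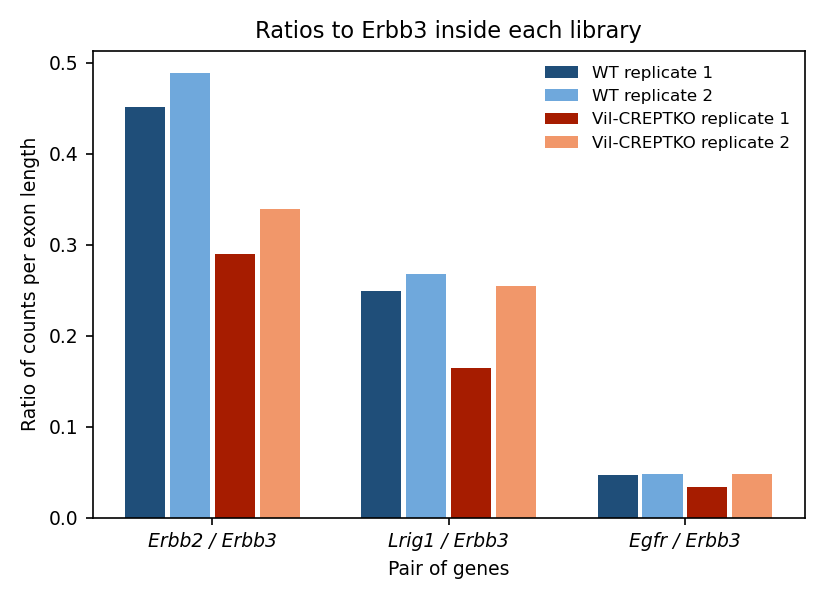
Ratio of each of 3 members to Erbb3 within a library, from counts divided by exon length; each bar is 1 library and the axis starts at 0. The Erbb2 bars of Vil-CREPTKO (0.290 and 0.339) are shorter than those of WT (0.451 and 0.489). For Lrig1 and Egfr, only the bar of Vil-CREPTKO replicate 1 is shorter than both WT bars.

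The ligands were read next. Areg, Ereg and Btc lie within 328 kb of each other on chromosome 5 (91074622 to 91402994), and their values did not shift as a block. Areg (ENSMUSG00000029378), the gene of amphiregulin, was at 4.37 and 6.12 CPM in the WT libraries and at 6.07 and 7.49 CPM in the Vil-CREPTKO libraries. It was the only ligand with a positive log2 fold change under all 13 alternatives, from 0.15 to 0.64, but its groups overlapped (0.37, 95% interval -0.18 to 0.93, standard error 0.24, adjusted p 0.563 from edgeR). The WT libraries alone differed by 1.40 times.

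Ereg (ENSMUSG00000029377), the gene of epiregulin, had 33 counts in each WT library, against 22 and 29 with CREPT deleted. Both Vil-CREPTKO counts were lower, at a level where the 95% interval ran from -1.39 to 0.87 (log2 fold change -0.26, standard error 0.50, adjusted p 0.879 from edgeR), so that a 2-fold decrease could not have been told from no change. Btc (ENSMUSG00000082361), the gene of betacellulin, was at 3.94 and 4.02 CPM in the WT libraries and at 3.64 and 5.05 CPM in the Vil-CREPTKO libraries. The Vil-CREPTKO libraries lay on either side of both WT libraries (log2 fold change 0.13, standard error 0.26, adjusted p 0.889 from edgeR), and without Vil-CREPTKO replicate 2 the sign turned (-0.13).

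Tgfa (ENSMUSG00000029999, chromosome 6), the gene of TGFα, was at 20.5 and 25.2 CPM in the WT libraries and at 20.3 and 21.6 CPM in the Vil-CREPTKO libraries. The WT libraries differed more from each other than the Vil-CREPTKO ones did, and the groups overlapped. Its log2 fold change was -0.13 (95% interval -0.48 to 0.23, standard error 0.16, adjusted p 0.787 from edgeR) and became 0.031 without WT replicate 2.

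Hbegf (ENSMUSG00000024486, chromosome 18), whose product is shed from the cell surface as HB-EGF, was at 8.68 and 12.0 CPM in the WT libraries and at 9.46 and 6.11 CPM in the Vil-CREPTKO libraries. The lowest library was Vil-CREPTKO replicate 2 and the other Vil-CREPTKO library lay between the WT ones. The log2 fold change of -0.41 (95% interval -0.99 to 0.18, standard error 0.26, adjusted p 0.547 from edgeR) kept its sign under all 13 alternatives, between -0.76 and -0.12.

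Egf (ENSMUSG00000028017, chromosome 3), the gene that names the family, had 69 and 60 counts in WT, 26 counts in Vil-CREPTKO replicate 1 and 66 counts in replicate 2. Only replicate 1 was low, by 2.25 times against the other Vil-CREPTKO library, the widest split of any member. The log2 fold change was -0.40 (95% interval -1.48 to 0.68, standard error 0.47, adjusted p 0.779 from edgeR), and it was 0.061 without that library and -1.10 without the other. Exons of Egf share 607 bases (5.38% of its exon length) with Gm42697 and 500 bases (4.43%) with 6330410L21Rik, antisense genes whose reads cannot be told from those of Egf unless strand was used.

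Vil-CREPTKO replicate 1 was the lowest library for 7 of the 10 members (Egfr, Erbb2, Lrig1, Ereg, Btc, Egf and Tgfa), and WT replicate 2 the highest for 5. The share of all genes lowest or highest in these libraries was not counted, so these counts are not read as a trait of the members. Leaving out Vil-CREPTKO replicate 1 turned the signs of Egfr, Lrig1 and Egf to positive, so their negative values rest on that library. Erbb2 stayed negative whichever library was left out (-0.56 to -0.42), as did Ereg and Hbegf, and Areg and Erbb3 stayed positive.

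**Figure D4:**
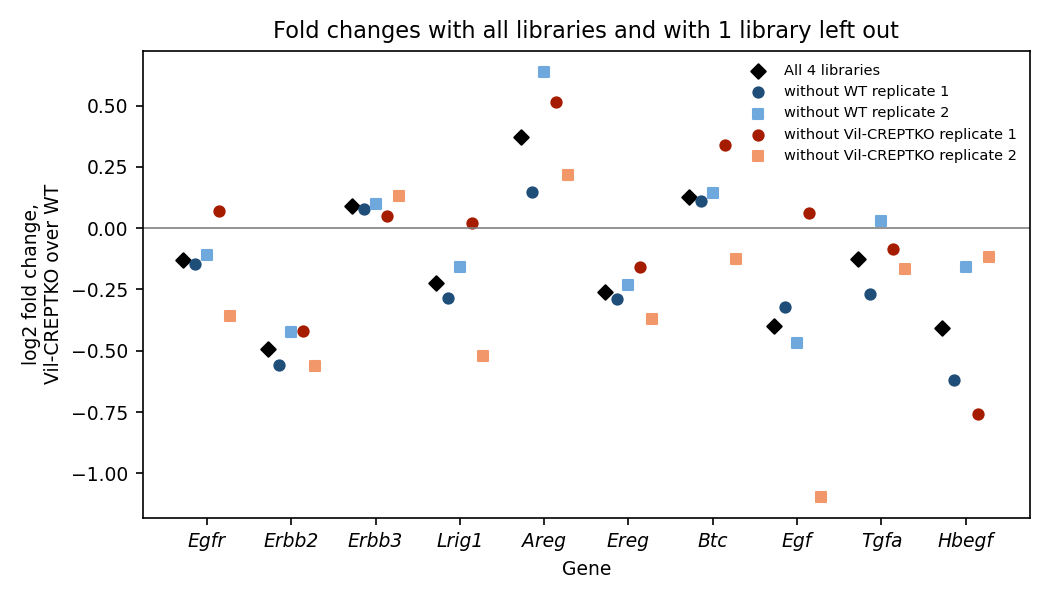
Log2 fold change of each member, Vil-CREPTKO over WT, with all 4 libraries (diamonds) and with 1 library left out (circles and squares, coloured by the library left out). Erbb2 stays between -0.56 and -0.42, whereas Egfr, Lrig1 and Egf move above 0 without Vil-CREPTKO replicate 1.

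Other genes of the pathway were read from 6 lists. In all they hold 84 genes, of which 78 were tested. With edgeR, 2 fell (2.56%, beside 2.29% of all genes) and 0 rose, and the median log2 fold change was 0.003. The share that fell was thus near that of all genes tested.

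The other receptor and ligand genes had few or no counts in these crypts. Erbb4, the remaining receptor of the family, and the neuregulin gene Nrg3 were listed at 0 in all 4 libraries, and Nrg1, Nrg2 and Epgn had at most 6 counts in a library. Pik3r2, a widely used PI3K subunit gene, was also listed at 0 throughout, so a 0 in the table need not mean that a transcript is absent. Of the neuregulin genes, Nrg4 alone was tested. It was at 4.78 and 5.30 CPM in the WT libraries and at 4.14 and 3.46 CPM in the Vil-CREPTKO libraries (log2 fold change -0.41, standard error 0.24, adjusted p 0.512 from edgeR), with 6.06% of its exon length shared with Fbxo22 on the other strand. Lrig2 and Lrig3, the relatives of Lrig1, did not pass either, and Lrig3 was at 52.2 and 47.4 CPM in WT and 46.3 and 63.4 CPM in the Vil-CREPTKO libraries.

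The list of ligand release holds the sheddases Adam10 and Adam17, which cut ligands from the cell surface, the rhomboid proteins that carry or cut them, and the sheddase inhibitor Timp3. All 6 were tested and 0 passed, with a median log2 fold change of 0.079. The smallest p were those of Rhbdf1 (0.28, standard error 0.18, adjusted p 0.551 from edgeR) and Rhbdl2 (0.22, standard error 0.19, adjusted p 0.672 from edgeR).

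Both genes that fell belong to the list of receptor inhibitors and turnover, in which 2 of 15 passed and the median was -0.10. That is 13.3% of the list, beside 2.29% of all genes tested that fell. At an unadjusted p under 0.05 the list held the same 2 genes. This 13.3% stood beside 14.3% of all genes tested in either direction and 9.76% in the lower direction. Whether the list differs from all genes was not tested. Cblc (ENSMUSG00000040525, chromosome 7, 19778881 to 19796809), a ubiquitin ligase of the CBL family that acts on activated EGFR, fell from 45.9 and 46.6 CPM in WT to 30.4 and 28.9 CPM in the Vil-CREPTKO libraries. That is 64.2% of WT, with a log2 fold change of -0.64 (standard error 0.12, adjusted p 0.0287 from edgeR). Rnf41 (ENSMUSG00000025373, chromosome 10, 128411657 to 128441441), also called Nrdp1, a ubiquitin ligase known for the turnover of ERBB3, fell from 24.5 and 29.6 CPM to 15.3 and 16.96 CPM. That is 59.7% of WT, with a log2 fold change of -0.74 (standard error 0.16, adjusted p 0.0466 from edgeR). Both stayed negative under all 13 alternatives and were under the threshold in 8 of them, with adjusted p from 0.00207 to 0.107 for Cblc and from 0.00133 to 0.191 for Rnf41. For Cblc it was 0.107 after the GC and length correction, 0.0563 and 0.0983 when WT replicate 1 or 2 was left out and 0.0523 for Vil-CREPTKO replicate 2, and for Rnf41 it was 0.0567 with RLE and 0.0588 with upper-quartile scaling, 0.0848 after the GC and length correction, and 0.191 or 0.119 when WT replicate 2 or Vil-CREPTKO replicate 1 was left out.

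Of the 20 genes of the adaptors and the RAS-MAPK cascade, which carries the signal from the receptors to the nucleus, 0 passed. At an unadjusted p under 0.05 there were 3 genes, all lower, which is 15% of the list beside 14.3% of all genes tested in either direction and 9.76% in the lower direction. The median log2 fold change was 0.035. Araf, a RAF kinase gene, was at 87.2 and 76.7 CPM in the WT libraries and at 57.5 and 57.3 CPM in the Vil-CREPTKO libraries (log2 fold change -0.51, standard error 0.12, adjusted p 0.0658 from edgeR), and Map2k2, which encodes the kinase MEK2, at 230.8 and 231 CPM against 183 and 139 CPM (-0.52, standard error 0.16, adjusted p 0.17 from edgeR). In the PI3K-AKT-mTOR arm, 0 of 14 tested genes passed and the median was -0.023. Its smallest p were those of Pik3cb, a catalytic subunit gene (-0.37, standard error 0.15, adjusted p 0.285 from edgeR), and Rheb, an activator of mTOR (0.20, standard error 0.11, adjusted p 0.488 from edgeR).

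The last list holds feedback inhibitors and early target genes, many of which ERK signals induce. Of its 20 genes, 0 passed, 13 were negative and 7 positive, and the median was -0.15. Spry4, a Sprouty feedback inhibitor gene, had 87 and 119 counts in WT against 6 and 36 in Vil-CREPTKO. Both Vil-CREPTKO libraries were far lower but apart from each other (log2 fold change -2.21, standard error 0.64, adjusted p 0.135 from edgeR). Of the 12 alternatives that kept the gene, 5 gave an adjusted p under 0.05, among them DESeq2 (0.0196), edgeR with no filter on low counts (0.00044) and edgeR without Vil-CREPTKO replicate 2 (0.00691), and both others had a replicate block. The other 7 ran up to 0.237. The size rests on which Vil-CREPTKO library is kept, since the log2 fold change was -1.49 without replicate 1 and -3.87 without replicate 2. Etv5, a transcription factor gene induced by ERK signals, was at 5.52 and 5.24 CPM in the WT libraries and at 3.68 and 3.89 CPM in the Vil-CREPTKO libraries (-0.51, standard error 0.23, adjusted p 0.364 from edgeR).

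**Figure D5:**
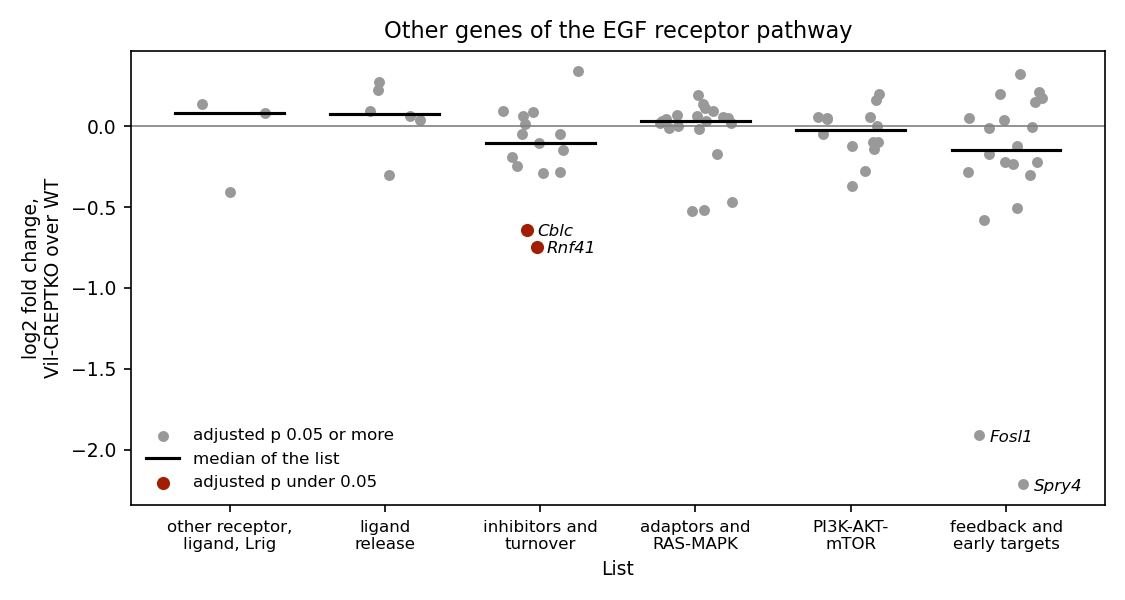
Log2 fold change, Vil-CREPTKO over WT, of the 78 tested genes of the 6 pathway lists; each point is 1 gene, spread sideways for display, and black lines are list medians. Cblc (-0.64) and Rnf41 (-0.74) are the 2 genes with an adjusted p under 0.05 from edgeR. Spry4 (-2.21) and Fosl1 (-1.91) lie lowest without passing, and these 4 are labelled. Fosl1 had 34 counts in each WT library and 1 and 16 in the Vil-CREPTKO ones. It shares 57.2% of its exon length with Ccdc85b on the other strand.

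For Erbb2, the member with the smallest p, the genes outside the lists with the most similar profile were sought, as the smallest Euclidean distance between mean-centred log2 CPM over the 4 libraries. They were Tm4sf4 (distance 0.044), Kit (0.055) and Tox4 (0.057). Their log2 fold changes were -0.48, -0.48 and -0.49, close to that of Erbb2 by the way they were chosen. A likeness over 4 libraries describes these libraries only.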

How the data were processed

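The values used were raw RNA-seq counts that the authors deposited for each gene in all 4 libraries. Per the submitters' processing notes and the methods, CASAVA 1.8, Bowtie2 and RSEM were used with GRCm38.p6. Other versions, the annotation and the strand setting were not given in the sources used here. Of 53845 rows, 53360 matched GENCODE M21 (GRCm38), the source of symbols, coordinates and exon lengths. A count of 0 allows up to 3 counts, or 0.0588 to 0.069 CPM, for counting error only.

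Genes were filtered by filterByExpr, scaled by TMM and fitted with edgeR 4.0.16 (quasi-likelihood test, group as the only term, two-sided, R 4.3.3), and p-values were adjusted over 17504 genes by Benjamini-Hochberg. The common biological coefficient of variation was 0.188. The script was tested on simulated data. Intervals are the log2 fold change ± SE times the t quantile of the fit. CPM and RPKM are TMM-scaled. Libraries are biological replicates by the methods.

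Members and lists were chosen with earlier results of these data known. Named were the members, Rprd1b, list genes with an adjusted p under 0.05 (otherwise the 2 smallest p of a list), and the 3 profiles nearest to the member with the smallest p. List genes untested or outside this rule were named after their values were seen. Alternatives were DESeq2 1.42.0, other scalings and filters, a GC and length loess (span 0.5), a replicate block, and leaving out each library.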

Additional observations from a re-analysis of the deposited data

How the results depend on the processing

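The number of members at an adjusted p under 0.05 was 0 under 11 of 13 alternatives and 1 (Erbb2) with library totals only and without the filter on low counts. Pathway list genes numbered 4 with DESeq2 and library totals, 1 with RLE or upper-quartile scaling, 5 without the filter, 0 after the GC and length correction, and 0 to 2 with a library left out. Over all genes, 400 were lower and 74 higher in the reported fit, 623 and 183 with DESeq2, 908 and 325 without the filter, and 593 and 286 with the replicate block and GC and length correction; with a library left out, 332 to 462 were lower and 80 to 234 higher. The labels link same-numbered libraries by the number alone, and whether these shared a litter, day or run is not known. The correlation of their deviations from the group means was 0.028, which cannot settle this. The replicate block alone gave 452 lower and 106 higher, 0 members and 3 list genes. With it, Spry4 had an adjusted p of 0.041 from edgeR, and with the GC and length correction added Spry4 was at 0.00614 and Cblc at 0.0644.

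Signs turned for Erbb3 with library totals (-0.0052) and, with a library left out, for Egfr (-0.36 to 0.070), Lrig1 (-0.52 to 0.023), Btc (-0.13 to 0.34), Egf (-1.10 to 0.061), Tgfa (-0.27 to 0.031) and Lrig3 (-0.10 to 0.34). The cause was not tested, except that such fits hold 3 libraries and assume the lone one varies like the others. Rprd1b stayed under the threshold throughout. With 2 libraries a group, spread rather than depth limits the precision. Counting error is largest for Ereg and Egf, which had 22 to 69 counts.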
